A study of Mus musculus with 24 samples.

Results

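Removal of CHIRON from 2i + LIF was followed here from 2 h to 12 h, by setting the 4 libraries collected at 12 h against the 3 usable libraries collected at 2 h, 7 of the 24 libraries of the series. E14 mouse embryonic stem cells (mESCs), an established line whose strain label reads 129m wt, were kept for 12 h on fibronectin-coated soft or stiff StemBond hydrogels in 2i + LIF. Beside the cytokine LIF, 2i + LIF contains the MEK inhibitor PD03, here at 1 µM, and the GSK3 inhibitor CHIRON, here at 3 µM. At 0 h the medium was changed to PD03 + LIF, and RNA was collected 2 h and 12 h later, whereas the 4 control libraries (0 h) stayed in 2i + LIF. All of these cells therefore had PD03 and LIF throughout, and the removal of CHIRON cannot be told apart from the medium change or from the additional hours in culture. Each group of substrate and time had 2 replicates. The 2 h groups kept both soft replicates and stiff replicate 2, because stiff replicate 1 held 171333 counts in all and was left out. The labels do not say that replicates were separate cultures, so p-values measure the spread between these libraries, which may be technical.

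GSK3 is a kinase of the β-catenin destruction complex. While CHIRON blocks it, β-catenin accumulates and, with the TCF/LEF factors at the DNA, turns on Wnt target genes, and in mESCs it also lifts the repression that Tcf7l1 exerts on pluripotency genes. Many direct Wnt targets, such as Axin2 and Sp5, are themselves feedback regulators of the pathway.

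Between 19393787 and 31111260 reads were counted per library over the 11 libraries of 0 h, 2 h and 12 h, of which 78.0% to 85.3% fell on protein-coding genes. Levels are given as CPM, a gene's counts relative to the normalised protein-coding total of its library, which are comparable between libraries and not between genes. Libraries are listed as soft replicate 1, soft replicate 2 and then the stiff replicates. The summed level of 7 embryonic stem cell markers was 3880 to 4000 CPM at 2 h and 4670 to 4890 CPM at 12 h. The 12 h libraries stood apart from those of 0 h and 2 h on the first principal component, which held 36.9% of the variance.

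From 2 h to 12 h, 1967 of 14615 genes rose (13.5%) and 2085 fell (14.3%) at an adjusted p under 0.05 (edgeR), 4052 in either direction (27.7%). Of these, 215 rose and 414 fell by more than 1 on the log2 scale. From 0 h to 2 h, 145 genes had risen (0.992%) and 58 had fallen (0.397%), 203 in all (1.39%). At 12 h against 0 h, 2318 genes were higher (15.9%) and 2378 lower (16.3%). In 4890 genes (33.5%) the 4 libraries at 12 h did not overlap the 3 at 2 h. The median log2 fold change from 2 h to 12 h over all genes tested was -0.02. With the stiff 2 h library of few reads added, 754 genes rose and 705 fell, and on soft substrates alone 1218 rose and 1282 fell. Tube numbers of the libraries recur across groups, and with a block by tube number 1245 genes rose and 1294 fell.

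The genes were then sorted by when they moved. A late gene was called from 2 h to 12 h and at 12 h against 0 h in the same direction, was not called at 2 h, and had a 95% interval of its 2 h change within a fraction of 0.5 of its 12 h change. A reverted gene was called at 2 h and then called in the opposite direction, and a continued gene was called in the same direction in both intervals. This gave 453 late rises and 461 late falls, 82 genes that reverted after a rise and 12 after a fall, 21 continued rises and 19 continued falls. A further 42 genes rose and 27 fell by 2 h and were not called from 2 h to 12 h, although in 8 and 3 of them the libraries of 2 h and 12 h did not overlap, and 1481 genes that were higher and 1523 that were lower at 12 h than at 2 h met none of these definitions. DESeq2 placed 438 of the late rises, 421 of the late falls, 80 and 12 of the reverted and 21 and 18 of the continued genes in the same class. Both intervals share the 2 h libraries, so that a deviation of these libraries shifts a gene in opposite ways in the first and the second interval, and the slant in the plot of the 2 intervals cannot be read as a result. Without the interval rule the late rises numbered 1540 and the late falls 1508.

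In the smaller classes, the block by tube number left 22 and 0 genes reverted after a rise and a fall, 3 continued rises and 7 continued falls. These classes also rested on single libraries. Genes reverted after a rise numbered 45 without soft 0 h replicate 1, 42 without soft 0 h replicate 2, 47 without soft 2 h replicate 1, 50 without soft 2 h replicate 2 and 38 without stiff 2 h replicate 2. Genes reverted after a fall numbered 5, 4, 2, 3 and 4 without the same libraries and 6 without stiff 12 h replicate 1. Continued rises numbered 11, 9 and 13 without the first 3 of them and 7 without stiff 2 h replicate 2. Continued falls numbered 9, 9, 12, 11 and 8 without the same 5 libraries and 10 without stiff 0 h replicate 2. Late falls numbered 284 without stiff 2 h replicate 2, and stayed within 1.5 times of their number when any other single library was left out. Late rises stayed within that range whichever single library was left out.

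**Figure D1:**
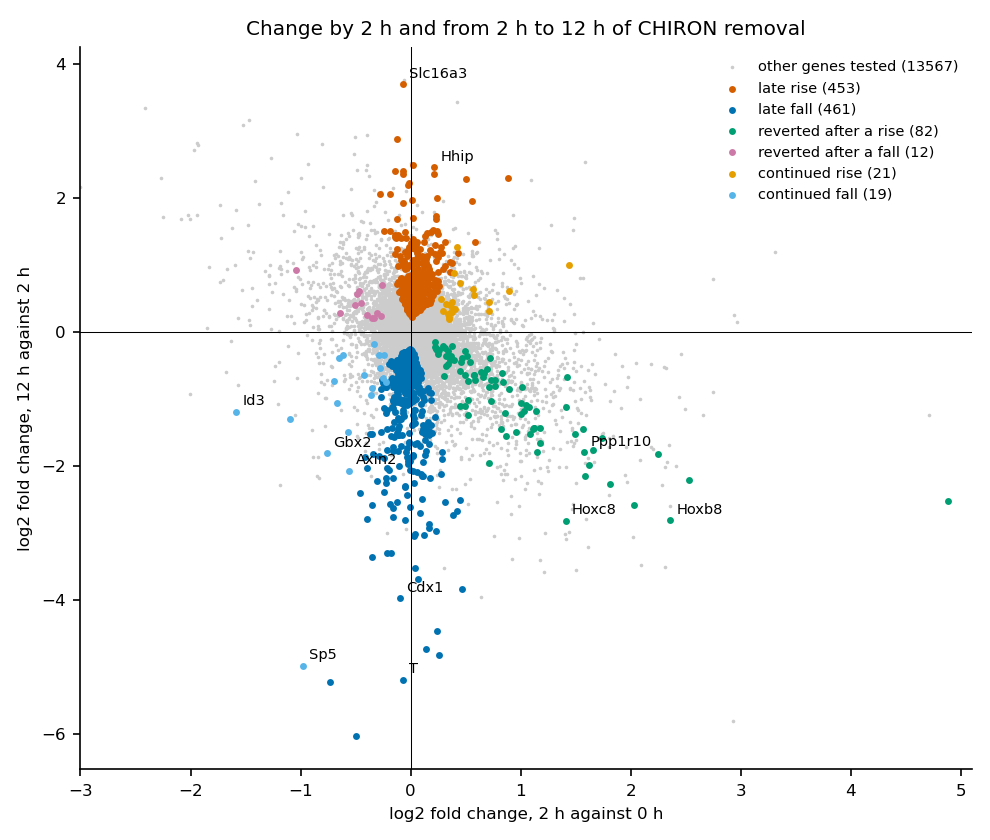
The log2 fold change from 0 h to 2 h of CHIRON removal (horizontal axis) is plotted against that from 2 h to 12 h (vertical axis) for the genes tested, 3 genes beyond the horizontal range left out, with each point 1 gene coloured by class and the number of genes in brackets. Late genes lie along the vertical axis, the 82 genes that reverted after a rise at the lower right, and Sp5 and Id3 among the continued falls at the lower left.

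The promoters of 4 leading genes are shown because the Wnt pathway acts through TCF/LEF factors, whose core binding motif is CTTTGAT or CTTTGAA. Each stretch holds the 250 bases before a RefSeq gene start on the gene's strand (GRCm38.p6), in lower case with a match to either motif, on either strand, in capitals. Among genes with a mean of at least 5 CPM, T was the late fall and Slc16a3 the late rise with the largest change from 2 h to 12 h, Sp5 led the continued falls and Ppp1r10 the genes that reverted after a rise.
T (chr17:8434173-8434422, plus strand): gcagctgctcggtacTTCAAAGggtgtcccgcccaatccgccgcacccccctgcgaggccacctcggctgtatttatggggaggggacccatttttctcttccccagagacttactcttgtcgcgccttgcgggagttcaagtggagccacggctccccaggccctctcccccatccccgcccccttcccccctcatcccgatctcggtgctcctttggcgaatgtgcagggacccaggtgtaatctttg
Sp5 (chr2:70474673-70474922, plus strand): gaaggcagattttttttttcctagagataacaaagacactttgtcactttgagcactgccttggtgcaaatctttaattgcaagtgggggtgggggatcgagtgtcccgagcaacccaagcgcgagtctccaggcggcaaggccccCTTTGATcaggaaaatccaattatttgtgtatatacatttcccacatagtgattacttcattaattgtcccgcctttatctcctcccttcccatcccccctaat
Ppp1r10 (chr17:35916946-35917195, plus strand): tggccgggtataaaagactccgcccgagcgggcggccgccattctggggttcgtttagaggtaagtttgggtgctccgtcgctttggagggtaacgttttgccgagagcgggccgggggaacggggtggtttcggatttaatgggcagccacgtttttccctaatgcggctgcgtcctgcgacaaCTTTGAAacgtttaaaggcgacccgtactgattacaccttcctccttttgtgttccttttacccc
Slc16a3 (chr11:120948817-120949066, plus strand): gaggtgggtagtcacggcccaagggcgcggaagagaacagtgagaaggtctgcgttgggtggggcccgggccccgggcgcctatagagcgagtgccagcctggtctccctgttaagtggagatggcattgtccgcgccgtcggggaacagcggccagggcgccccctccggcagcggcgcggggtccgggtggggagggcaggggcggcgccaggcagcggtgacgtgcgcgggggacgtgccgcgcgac

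The T window held CTTTGAA on the opposite strand, which reads TTCAAAG on the gene's strand. Sp5 held CTTTGAT and Ppp1r10 held CTTTGAA on the gene's strand, and the window of Slc16a3 held neither. The RefSeq starts of Ppp1r10 and Slc16a3 lie inside the gene bounds given with their levels, which are those of GENCODE, so that these windows do too. A further window of Ppp1r10 (chr17:35919022-35919271) held no match. Of 41 genes named by class or as a marker, 31 had such a window and only T, Sp5 and Ppp1r10 held a match. The genes shown were picked from those that held a match or led a class, so their matches are no result. Cited4 and Epn2 led the continued rises and the genes reverted after a fall, among genes with a mean of at least 5 CPM. Their windows held no match and are not shown. Over the genes tested that had a window, 698 of 11002 (6.34%) held a match in any of their windows. The share was 11.5% for late falls (39 of 340), 5.88% for late rises (20 of 340), 8.47% for genes reverted after a rise (5 of 59), 14.3% for continued falls (2 of 14) and 5.26% for continued rises (1 of 19), and 0 of 10 genes reverted after a fall held a match. A match is a run of letters and does not show that a factor binds there.

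Of the late falls with a mean of at least 5 CPM, the 5 largest were T, Cdx1, Ido2, Htr5a and Afap1l1. T (brachyury, the T-box factor of the primitive streak, ENSMUSG00000062327, chr17:8434423-8442496) was at 8.65, 9.06 and 6.53 CPM at 2 h and at 0.262, 0.32, 0.154 and 0.107 CPM at 12 h, where its libraries held 7, 5, 3 and 2 counts. Its level fell 36.3-fold (log2 fold change -5.18 ± 0.25 SE, adjusted p = 6.44e-12), after a change of -0.07 from 0 h to 2 h. Cdx1, a homeobox factor of the posterior embryo and a direct Wnt target (ENSMUSG00000024619, chr18:61018862-61036199), was at 163, 148 and 152 CPM at 2 h and at 8.88, 13.7, 7.95 and 9.06 CPM at 12 h. At 0 h Cdx1 was at 154 to 170 CPM, and its 2 h change was not called (-0.09 on the log2 scale). The libraries of 2 h and 12 h did not overlap, and the fall was 15.7-fold (log2 fold change -3.97 ± 0.10, adjusted p = 1.37e-16). Cdx2, its relative, had 55, 50 and 63 counts in the 2 h libraries and 4, 0, 1 and 1 at 12 h (log2 fold change -5.22 ± 0.46, which at so few counts depends on the prior count of the fit). Its 2 h libraries (2.68 to 3.35 CPM) already lay below those of 0 h (3.49 to 6.67 CPM), a change of -0.73 that was not called.

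Tcf7, a TCF/LEF factor and Wnt target (ENSMUSG00000000782, chr11:52252371-52283014), was at 140, 117 and 133 CPM at 2 h, as at 0 h (121 to 139 CPM), and at 66.9, 56.5, 56.4 and 62.9 CPM at 12 h. The groups of 2 h and 12 h did not overlap (log2 fold change -1.09 ± 0.07, adjusted p = 8.98e-10). Lef1, another TCF/LEF factor, stood at 6.16 to 7.796 CPM at 2 h and at 1.46 to 2.83 CPM at 12 h (log2 fold change -1.84 ± 0.21). The other leading late falls were Ido2 (-3.68 ± 0.12), an enzyme of tryptophan breakdown, Htr5a (-3.29 ± 0.19), a serotonin receptor, and Afap1l1 (-3.01 ± 0.20), an actin filament associated protein. In each of them the 3 libraries at 2 h lay above the 4 at 12 h.

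Late rises were led by Slc16a3, a lactate and proton transporter of glycolytic cells (ENSMUSG00000025161, chr11:120948480-120960868). It was at 2.56, 0.911 and 1.34 CPM at 2 h and at 20.1, 21, 13.9 and 25.95 CPM at 12 h, a rise of 13.0-fold (log2 fold change 3.70 ± 0.26, adjusted p = 1.38e-09). Hhip, a membrane protein that binds Hedgehog ligands, rose from 4.26 to 5.79 CPM in the 2 h libraries to 24.8 to 30.4 CPM at 12 h (2.46 ± 0.13). Bnip3, a mitochondrial protein of mitophagy, rose from 2.98 to 4.86 CPM to 16.3 to 21.8 CPM (2.41 ± 0.16). Myrf (2.21 ± 0.15), a membrane-bound transcription factor, and Apobec2 (2.06 ± 0.13), a member of the cytidine deaminase family, completed the 5 largest with a mean of at least 5 CPM. None of the 5 was called at 2 h against 0 h, and their 2 h changes lay between -0.19 and 0.21.

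Lefty1, an inhibitor of Nodal signalling (ENSMUSG00000038793, chr1:180935022-180938400), had 10, 7 and 10 counts at 2 h and 72, 42, 50 and 70 at 12 h. All 4 libraries at 12 h (2.57 to 3.73 CPM) were above all 3 at 2 h (0.375 to 0.609 CPM), with a log2 fold change of 2.54 ± 0.42 (adjusted p = 0.000105). The 2 h change of Lefty1 was 1.58 (adjusted p = 0.238) on libraries of 0 to 7 counts at 0 h, so that the depth did not show whether the rise was late, and it met no class. Lefty2, another inhibitor of the Lefty family, was a late rise, from 1.03 to 1.11 CPM at 2 h to 4.87 to 11.9 CPM at 12 h (2.89 ± 0.28).

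**Figure D2:**
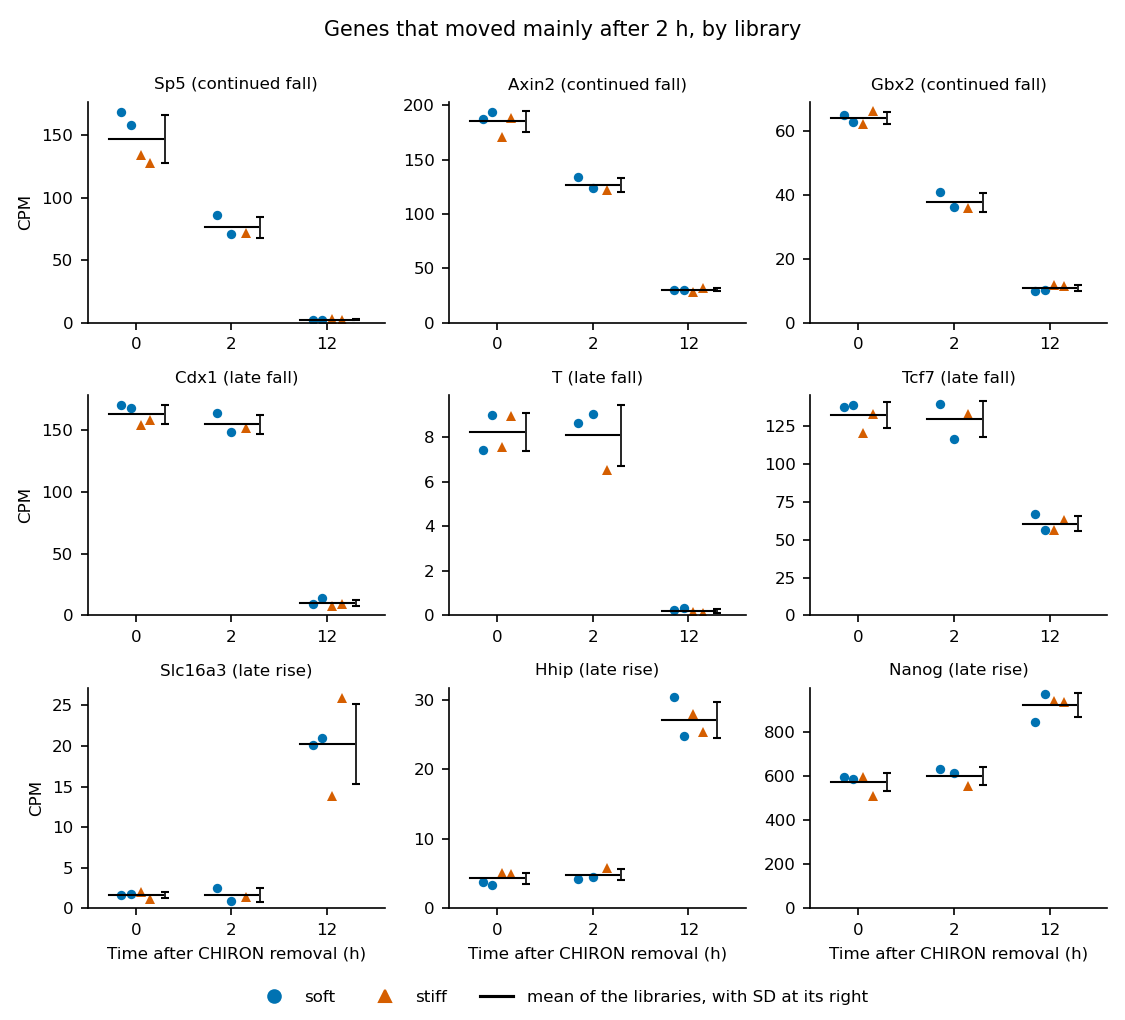
The level in CPM (vertical axes, each from 0) is shown in every library at 0 h, 2 h and 12 h of CHIRON removal (horizontal axes) for 3 continued falls (Sp5, Axin2, Gbx2), 3 late falls (Cdx1, T, Tcf7) and 3 late rises (Slc16a3, Hhip, Nanog), with circles for soft, triangles for stiff, a line at the mean and a bar for the SD. In the late genes the 2 h libraries sit near those of 0 h, whereas in the continued falls they sit between 0 h and 12 h.

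Continued falls held the feedback genes that had already moved by 2 h. Sp5, a zinc finger repressor and direct Wnt target (ENSMUSG00000075304, chr2:70474923-70477729), was at 169, 158, 134 and 128 CPM at 0 h, at 85.9, 70.8 and 72.03 CPM at 2 h and at 2.36, 2.43, 2.56 and 2.13 CPM at 12 h. Its log2 fold change was -0.98 in the first interval (adjusted p = 9.03e-08) and -4.97 ± 0.10 in the second (31.4-fold lower, adjusted p = 4.40e-18). Axin2, a scaffold of the destruction complex, was at 171 to 193.5 CPM at 0 h, at 134, 124 and 122 CPM at 2 h and at 30.5, 30.1, 28.4 and 31.6 CPM at 12 h. The groups of the 3 times did not overlap for either gene, and Axin2 fell by 0.56 and then by 2.06 ± 0.06 on the log2 scale.

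Gbx2, a homeobox factor downstream of LIF and Wnt signals in mESCs, fell by 0.76 in the first interval and by 1.80 ± 0.08 in the second. Nkx6-2, a homeobox factor of the neural tube (-0.57 and -1.48 ± 0.15), and Spry4, a feedback inhibitor of receptor tyrosine kinases (-1.10 and -1.29 ± 0.14), were the next. Id3, an inhibitor of bHLH factors and target of BMP signals, had made most of its fall by 2 h, from 26.4 to 30.4 CPM at 0 h to 7.72 to 11.1 CPM at 2 h and 3.22 to 5.18 CPM at 12 h (-1.59 and -1.18 ± 0.15).

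Continued rises were smaller. Cited4, a transcriptional co-activator, was at 12.9 to 14.6 CPM at 0 h, at 16.8, 16.8 and 20.3 CPM at 2 h and at 45.2, 45.1, 42.8 and 41.8 CPM at 12 h (0.42 and then 1.27 ± 0.08, adjusted p = 7.43e-10). Its relative Cited2 rose by 0.39 and then by 0.88 ± 0.07. Fgf4, the fibroblast growth factor made by naive mESCs, rose from 137 to 157 CPM at 0 h to 214 to 216 CPM at 2 h and 324 to 354 CPM at 12 h (0.56 and 0.65 ± 0.06). Marveld1 (0.74 ± 0.09) and AI593442 (0.55 ± 0.13 in the second interval) were the others of the 5 largest with a mean of at least 5 CPM.

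Among the genes that reverted, Ppp1r10, a nuclear regulatory subunit of protein phosphatase 1 also called PNUTS that acts in transcription termination, moved most of those with a mean of at least 5 CPM (ENSMUSG00000039220, chr17:35916434-35932283). It was at 234, 260, 231 and 258 CPM at 0 h, at 765, 701 and 726 CPM at 2 h and at 202, 205, 217 and 229 CPM at 12 h. The 3 libraries of 2 h stood above all others (log2 fold change 1.58 at 2 h, adjusted p = 1.68e-12, and -1.78 ± 0.06 from 2 h to 12 h, adjusted p = 2.29e-14). At 12 h it was lower than at 0 h by 0.21 on the log2 scale (adjusted p = 0.00835), so it ended beyond its starting level. With the stiff 2 h library of few reads added, the fall of Ppp1r10 from 2 h to 12 h was not called (-1.34, adjusted p = 0.27).

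Of the 82 genes that rose and reverted, 66 were not called at 12 h against 0 h, 4 stayed higher and 12 ended lower. The median log2 fold change was 0.73 in the first interval and -0.81 in the second. A few further members, chosen after their values were seen, are given with their levels and stand for no group. Dido1, a chromatin reader, went from 343 to 414 CPM at 0 h to 594 to 643 CPM at 2 h and 317 to 375 CPM at 12 h (-0.82 ± 0.06 from 2 h to 12 h). Pcf11, a factor of 3' end cleavage and transcription termination, went from 99.6 to 110 CPM to 151 to 164 CPM and back to 98.7 to 106 CPM (-0.63 ± 0.06). Zc3h4, a termination factor for noncoding transcripts (-0.27 ± 0.06), and Hnrnpdl, an RNA-binding protein (-0.25 ± 0.05), did the same on a smaller scale. Cdk9, the kinase of the elongation factor P-TEFb, was among the 12 genes that reverted after a fall, at 82.0 to 91.3 CPM at 0 h, 59.8 to 71.98 CPM at 2 h and 75.6 to 84.2 CPM at 12 h. The cyclin Ccnt2, a partner of that kinase, fell by 0.38 by 2 h and was not called from 2 h to 12 h (0.12).

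The other leaders of this class were Synpo2l, an actin-associated protein (1.11 and -1.44 ± 0.15), Mmrn2, an extracellular matrix glycoprotein (0.82 and -1.44 ± 0.09), the repressor Bcl6 (0.52 and -1.23 ± 0.11) and Hoxb9. Mmrn2 and Bcl6 ended below 0 h, by 0.61 and 0.71 on the log2 scale. Id2, a relative of Id3, moved the opposite way to it by 2 h, from 1.33 to 3.09 CPM to 5.54 to 7.32 CPM, and then fell to 3.65 to 4.42 CPM (1.42 and -0.66 ± 0.18), still higher than at 0 h. The fall of Id2 from 2 h to 12 h was lost in 4 of 22 alternative settings.

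Hox genes, the homeobox genes that pattern the body axis, were looked at after 6 of them had appeared in this class (7.32% of it, against 0.198% of all genes tested). Of 39 in the annotated table, 29 were tested. At 2 h, 6 were higher and 0 were lower, and from 2 h to 12 h 1 rose (Hoxd9, 1.09 ± 0.25) and 10 fell, against 0.992% and 0.397% of all genes at 2 h and 13.5% and 14.3% from 2 h to 12 h. Hoxb9 was at 9.79, 9.59, 8.03 and 9.45 CPM at 0 h, at 19.2, 19.5 and 17.5 CPM at 2 h and at 7.98, 8.26, 7.49 and 7.89 CPM at 12 h. The 2 h libraries lay above all the others (1.001 at 2 h, then -1.22 ± 0.10, adjusted p = 1.07e-08). Hoxb8 (2.36 and -2.80 ± 0.38), Hoxc8 (1.41 and -2.81 ± 0.36), Hoxc11 (1.58 and -2.14 ± 0.25), Hoxc10 (1.17 and -1.43 ± 0.24) and Hoxa3 (0.52 and -1.005 ± 0.13) also rose and then fell, Hoxc8 and Hoxa3 to below their level at 0 h (-1.40 and -0.48 at 12 h against 0 h). The 12 h libraries held 17, 3, 4 and 6 counts of Hoxc8 and 11, 13, 16 and 5 of Hoxb8. Hox genes of a cluster lie close together and counts were taken without a stated strand setting, so that reads of neighbouring or antisense transcripts may be counted in them.

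**Figure D3:**
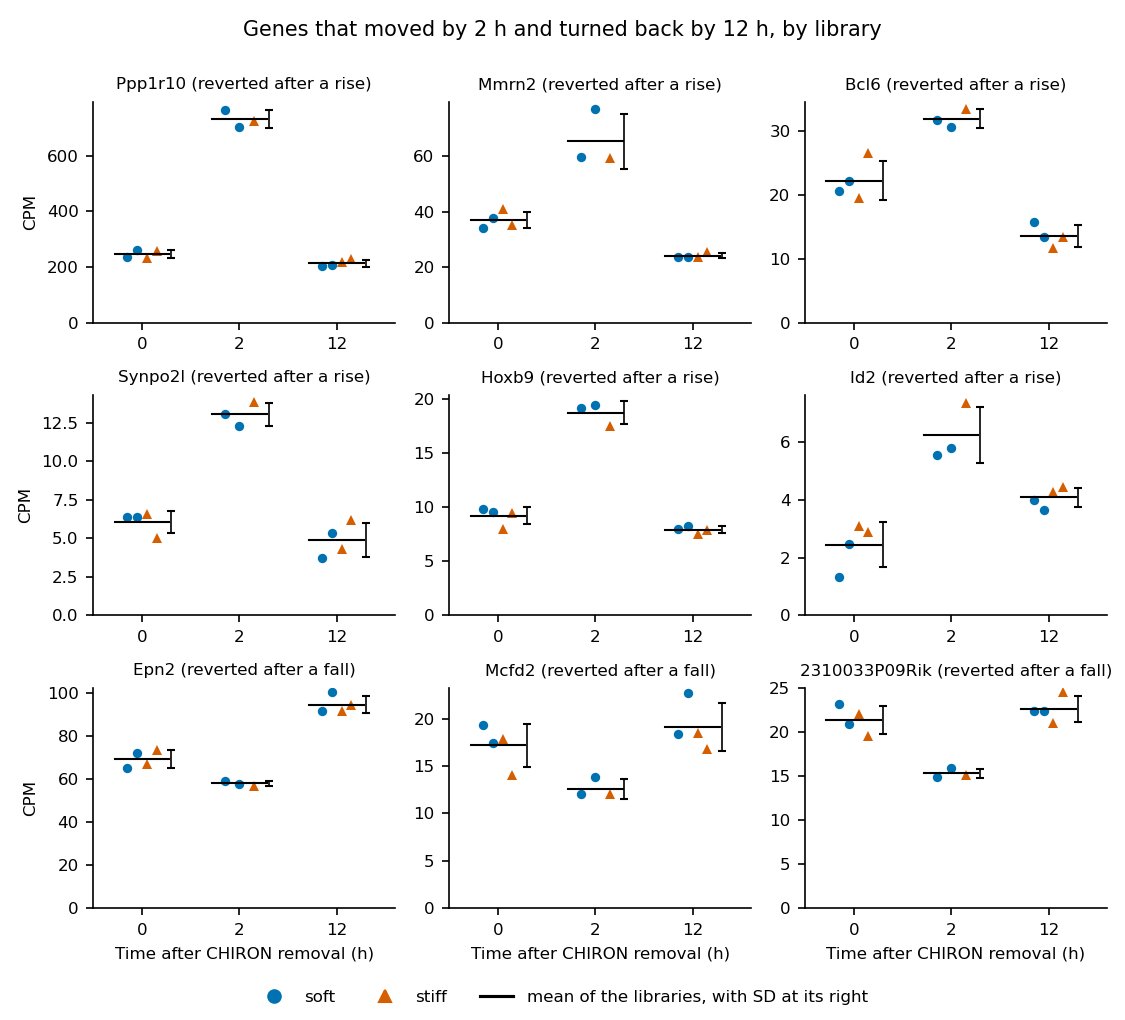
The level in CPM (vertical axes, each from 0) is shown in every library at 0 h, 2 h and 12 h of CHIRON removal for 6 genes that reverted after a rise and 3 that reverted after a fall, with circles for soft, triangles for stiff, a line at the mean and a bar for the SD. All 2 h libraries of Ppp1r10 stand between 701 and 765 CPM, against 202 to 260 CPM in the libraries of 0 h and 12 h.

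The 12 genes that reverted after a fall moved less, with medians of -0.43 and 0.35. Epn2, an endocytic adaptor, was at 65.0 to 73.6 CPM at 0 h, at 59.1, 57.8 and 57.0 CPM at 2 h and at 91.9, 100.4, 91.8 and 94.7 CPM at 12 h, and so ended above its start (0.71 ± 0.06 from 2 h to 12 h, adjusted p = 3.44e-08). Mcfd2, a cargo receptor subunit of the secretory pathway (0.62 ± 0.11), 2310033P09Rik (0.57 ± 0.09), Mob2 (0.43 ± 0.11) and Rpusd4 (0.41 ± 0.12) rose likewise after their fall and were not called at 12 h against 0 h. The call of Rpusd4 from 2 h to 12 h was lost in 5 of 22 alternative settings. Pmaip1, the p53 target also known as Noxa, was in this class at low level (1.10 to 1.77 CPM at 2 h and 2.36 to 3.14 CPM at 12 h).

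The counts of called members in the gene lists stand against 13.5% of all genes that rose and 14.3% that fell from 2 h to 12 h, 27.7% in either direction. The Wnt lists held opposite movements. Of 15 Wnt feedback and target genes tested, 9 fell from 2 h to 12 h and 4 rose (median -0.49), and at 2 h 3 were already lower. Rnf43 (-2.75 ± 0.51, on 5, 7, 1 and 2 counts at 12 h) and Nkd1 (-1.47), which restrain Wnt receptors and Dishevelled, fell together with Sp5, Axin2, Lef1, Tcf7, Dkk1, Znrf3 and Tnfrsf19. Nkd2 (0.99), Notum (0.66), Kremen1 (0.33) and Apcdd1 (0.32), which are also inhibitors of the pathway, rose. Of 9 genes of the Tcf7l factors and the destruction complex, 4 rose and the others were not called (median 0.06). Tcf7l1, the repressor that β-catenin counters in mESCs, was at 546, 468 and 557 CPM at 2 h and at 751, 691, 699 and 807 CPM at 12 h (0.48 ± 0.08), and Tcf7l2 rose by 0.55 ± 0.09. The rises of Ctnnb1 (0.17 ± 0.05) and Btrc (0.30 ± 0.08) were lost in 7 and 4 of 22 alternative settings, and Gsk3a (0.06), Gsk3b (-0.01), Apc (-0.11) and Axin1 (0.02) were not called.

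Of the 15 primitive streak and Cdx genes 8 passed the filter on low counts, of which T, Cdx1 and Cdx2 fell and Gsc rose (0.73 ± 0.21, lost in 6 of 22 alternative settings). Of 11 Nodal and Lefty genes, 5 rose and 1 fell (median 0.49). Beside Lefty1 and Lefty2, these were Nodal itself, from 30.9 to 34.0 CPM to 45.2 to 50.4 CPM (0.54 ± 0.08), its co-receptor Tdgf1 (0.49) and the target Skil (0.62 ± 0.10), whereas the receptor Acvr1b fell by 0.24. Of 8 BMP and Id genes, 1 rose, the inhibitory Smad6 (0.98 ± 0.11), and 3 fell, Id3, Id2 and the ligand Bmp4 (-0.82 ± 0.09). The median of the BMP and Id list was -0.08.

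Of 14 naive pluripotency genes, 6 rose and 2 fell from 2 h to 12 h (median 0.03). Nanog was at 631, 611 and 554 CPM at 2 h and at 845, 972, 937 and 934 CPM at 12 h (0.64 ± 0.07, adjusted p = 5.50e-07), with no overlap. Prdm14 (0.50 ± 0.08) and Klf2 (0.47 ± 0.07) rose, whereas Tfcp2l1 fell from 1203 to 1241 CPM to 767 to 833 CPM (-0.59 ± 0.05) and Nr0b1 fell by 0.41. Klf4 had fallen by 0.28 by 2 h and was not called in the second interval (-0.06). Of 5 general pluripotency genes, Sox2 (0.54 ± 0.06), Pou5f1 (0.30 ± 0.05) and Sall4 (0.29 ± 0.06) rose and Lin28a, an RNA-binding inhibitor of let-7 maturation, fell from 37.1 to 37.8 CPM to 8.90 to 14.2 CPM (-1.75 ± 0.10).

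Of 9 formative genes tested, 4 rose and 3 fell (median 0.38). Otx2, a factor of the formative epiblast, rose from 2.13, 1.13 and 1.30 CPM at 2 h to 6.82, 6.02, 7.798 and 7.78 CPM at 12 h (2.22 ± 0.22, adjusted p = 1.48e-07). Pou3f1 (0.87 ± 0.23), Zic2 (0.49 ± 0.07) and the methyltransferase Dnmt3a (0.38) also rose, whereas Grhl2 (-1.21 ± 0.25), Cdh2 (-0.45) and Dnmt3b (-0.24) fell. Of 9 LIF and Stat3 genes, 4 fell and the others were not called (median -0.24), among them Gbx2, the receptor subunit Il6st (-0.47 ± 0.05) and Stat3 (-0.33 ± 0.05). LIF stayed in the medium throughout.

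Of 17 ERK and immediate early genes, 3 rose and 4 fell (median -0.06) in the presence of PD03. Jun (0.94 ± 0.14) and Ier3 (0.74) rose, Atf3 rose (1.23 ± 0.36) in a call lost in 5 of 22 alternative settings, and Spry4, Spry2 (-0.93 ± 0.07), Etv4 (-0.74) and Dusp1 (-0.53) fell. In the Myc family, 6 of 9 rose and 2 fell (median 0.45). Myc was at 36, 29.1 and 32.1 CPM at 2 h and at 8.73, 8.83, 13.7 and 15.4 CPM at 12 h (-1.52 ± 0.14), whereas its paralogue Mycn (0.56 ± 0.07) and the Myc antagonists Mxd3 (0.76 ± 0.18), Mxd4 (0.69 ± 0.18) and Mxi1 (0.46) rose. Mnt, also a Myc antagonist, fell by 0.22. Of 20 ribosome biogenesis genes, 1 rose and 6 fell (median -0.13), a share near the 27.7% of all genes, with Gnl3 (-0.35 ± 0.06) and Mybbp1a (-0.32 ± 0.06, but 0.12 with the stiff 2 h library of few reads added) the largest. Of 19 sterol synthesis genes, 2 fell and the others were not called (median 0.03), and the call of the lanosterol synthase Lss (-0.22 ± 0.07) was lost in 9 of 22 alternative settings.

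In the list of glycolysis and hypoxia genes, 13 of 20 rose and 2 fell (median 0.32), and 9 of the 20 were late. Over all genes tested, 3.1% were late rises and 3.15% late falls. Beside Bnip3, the triosephosphate isomerase Tpi1 rose from 80.2, 67.6 and 78.4 CPM to 183, 166, 140 and 190 CPM (1.17 ± 0.09, adjusted p = 3.63e-09). The lactate dehydrogenase Ldha rose by 0.94, the phosphofructokinase Pfkl by 0.99 and the growth factor Vegfa by 0.99. Egln3 (-1.11 ± 0.19), an oxygen-sensing prolyl hydroxylase, and Pdk1 (-0.89), a kinase that inhibits pyruvate dehydrogenase, fell.

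Of 16 Atf4 and amino acid stress genes, 7 rose and 4 fell (median 0.11), with Chac1 (0.79 ± 0.12) and Cth (0.65 ± 0.06) the largest rises and the asparagine synthetase Asns the largest fall (-0.75 ± 0.05). Of 14 p53 target genes, 5 rose and 5 fell (median -0.10), and of 8 heat shock and chaperone genes 6 rose and the others were not called (median 0.40), among them Hspa1b (0.72 ± 0.21, near-identical in sequence to Hspa1a, so that reads may be split between them, and lost in 4 of 22 alternative settings), Hspb1 (0.42 ± 0.05) and Hspa5 (0.40 ± 0.05). In the list of G1 cyclins and CDK inhibitors, Cdk6 fell from 117 to 140 CPM to 45.9 to 53.7 CPM (-1.38 ± 0.07), whereas the inhibitors Cdkn1c (1.26 ± 0.28) and Cdkn1b (0.59 ± 0.07) rose, and 5 of 9 were not called (median 0.12). The rise of the cyclin Ccnd3 (0.17 ± 0.06) was lost in 10 of 22 alternative settings. Of 11 G2/M genes, 5 rose and the others were not called (median 0.16), by at most 0.47 (Ube2c). Of 12 clock genes, 2 rose and 5 fell (median -0.16), led by the repressors Bhlhe40 (-0.82 ± 0.13) and Nr1d1 (-0.53 ± 0.09).

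Of the lists tied to adhesion, that of YAP target genes also holds members of the pathway itself, such as Tead1. Of its 7 genes tested 1 rose, Ajuba (0.72 ± 0.06), and 3 fell (median -0.14), among them Tead1 (-0.55 ± 0.08). The falls of Cyr61 (-0.22 ± 0.08) and Amotl2 (-0.21 ± 0.06) were lost in 17 and 5 of 22 alternative settings. The sign of Amotl2 turned (0.11) with the stiff 2 h library of few reads added. Amotl2 had risen by 0.38 at 2 h, as had Ctgf by 0.31, whose change from 2 h to 12 h was not called (-0.13, with all 4 libraries at 12 h below the 3 at 2 h). Of 10 SRF target and actin genes, 3 were called, a share near the 27.7% of all genes. Srf rose (0.29 ± 0.06) and 2 fell, the focal adhesion protein Vcl (-0.33 ± 0.06, but 0.028 with the stiff 2 h library of few reads added) and Tpm1, whose call was lost in 20 of 22 alternative settings (median -0.09). Of the 2 metallothionein genes Mt1 fell (-0.28 ± 0.07), a call lost in 3 of 22 alternative settings and a sign turned (0.15) with the stiff 2 h library of few reads added. None of the 5 cleavage-stage genes tested was called.

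Markers of other cell types were read as a check. Of 5 primitive endoderm markers tested none was called, and their summed level was 13.5 to 17.3 CPM at 2 h and at most 15.6 CPM at 12 h. Of 4 trophectoderm markers Gata3 rose (1.203 ± 0.13) and Tfap2a fell (-0.37 ± 0.07), with sums of 96.4 to 113 CPM and 90.5 to 106 CPM. Of 4 neuroectoderm markers Nes (1.04 ± 0.07) and Sox1 (0.71 ± 0.10) rose, and the summed level of the list was 40.1 to 43.4 CPM at 2 h and 74.7 to 81.0 CPM at 12 h. Of 4 fibroblast markers Pdgfrb reverted after a rise (0.50 and -1.10 ± 0.11), with sums of 20.6 to 27.0 CPM at 2 h and 12.7 to 15.2 CPM at 12 h. Fewer cells of a type and less RNA per cell cannot be told apart in bulk samples.

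**Figure D4:**
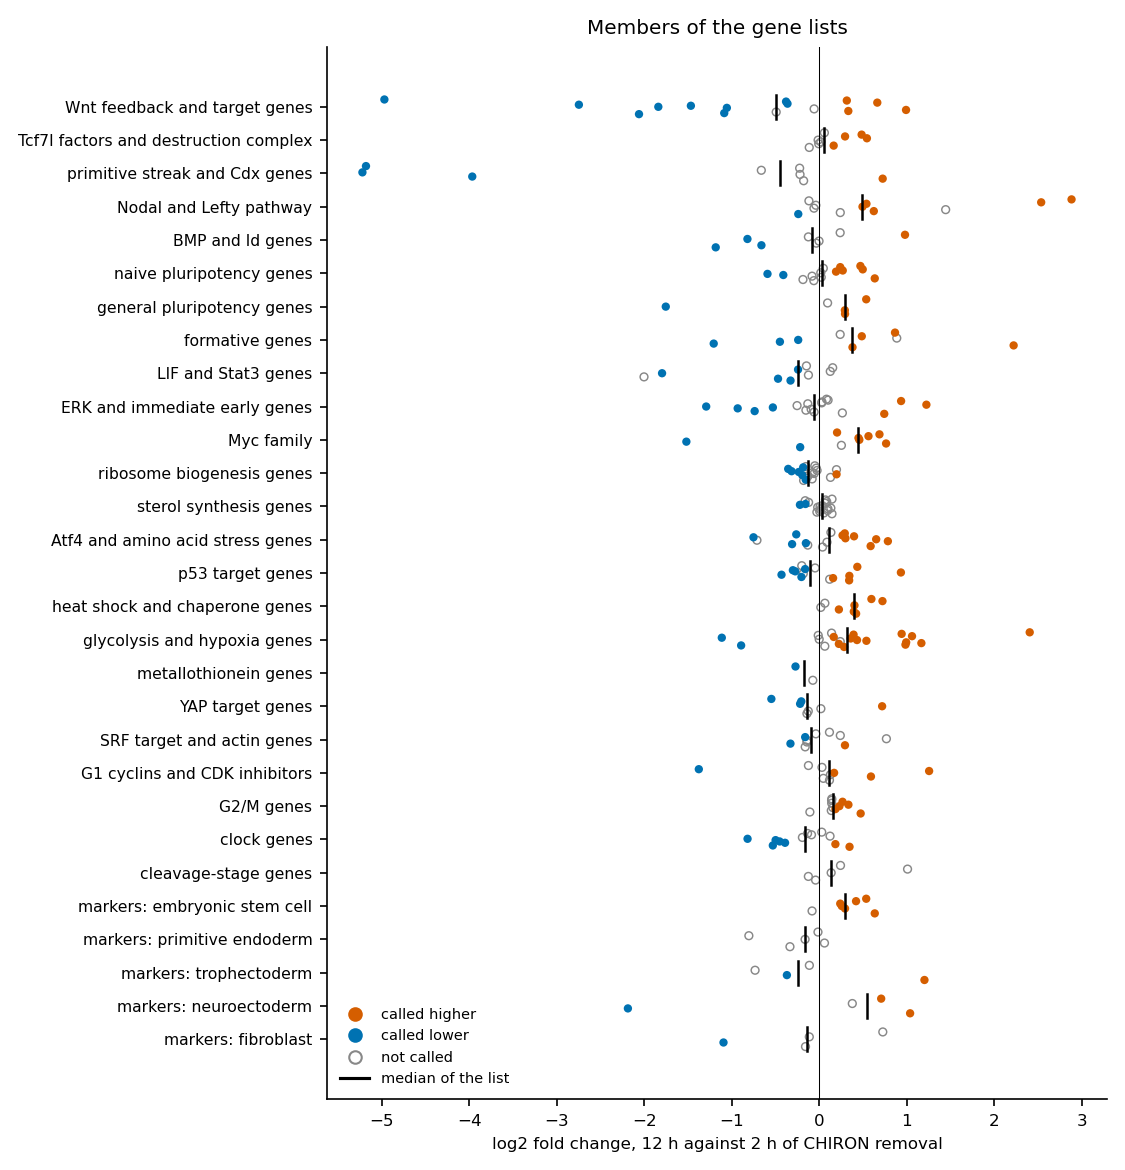
Each point is 1 tested member of a gene list (rows), placed by its log2 fold change from 2 h to 12 h of CHIRON removal (horizontal axis), filled where it was called at an adjusted p under 0.05 and open where not, with a black bar at the median of the list. The median over all genes tested was -0.02. The largest falls are in the Wnt and primitive streak lists and the largest rises in the Nodal and Lefty and the glycolysis and hypoxia lists.

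The change from 2 h to 12 h was then compared between substrates. The difference between soft and stiff was called for 0 of 14615 genes (0%) by edgeR, with 640 genes at an unadjusted p under 0.05, and for 0 genes by DESeq2, with 350. Without the filter on low counts edgeR called 29 of 20012 genes. The classes were called on soft and stiff libraries together, so that a same sign on both substrates was largely fixed by that choice and is given as a description, for all 453 late rises and all 461 late falls against 10634 of the 14615 genes tested. The median was 0.62 on soft and 0.60 on stiff for the rises and -0.65 and -0.70 for the falls. The 82 genes that reverted after a rise had medians of -0.79 and -0.77. The stiff change rests on 1 library at 2 h, whose spread is assumed to be that of the other groups, so that a difference in a single gene was poorly resolved.

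Removal of PD03 in the companion experiment, with CHIRON and LIF kept, gave 8 libraries at the same times, 4 at 2 h and 4 at 12 h. Both tables were fitted together over 14742 genes, each change being taken within its own table. The change from 2 h to 12 h was higher after CHIRON removal than after PD03 removal in 2536 genes (17.2%) and lower in 2703 (18.3%), 5239 in all (35.5%). After PD03 removal itself 2834 genes rose (19.2%) and 2690 fell (18.2%) from 2 h to 12 h, 5524 in all (37.5%), and 214 had risen (1.45%) and 135 had fallen (0.916%) at 2 h, 349 in all (2.37%). PD03 removal called 164 of 453 late rises in the same direction and 124 in the opposite one, and 150 and 118 of the 458 late falls found in both tables. The medians of these classes after PD03 removal were 0.06 and -0.04, and those over all genes in both tables were -0.0046 after CHIRON removal and 0.011 after PD03 removal. Since the classes were chosen on the libraries of CHIRON removal, the share of them that differed between the experiments is no test.

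The falls of T, Cdx1, Sp5 and Axin2 were not seen after PD03 removal. Cdx1 stood at 132, 147, 144 and 133 CPM at 2 h of PD03 removal and at 197, 212, 206 and 209 CPM at 12 h, a rise of 0.57 ± 0.06, and differed from CHIRON removal by -4.53 ± 0.10 (adjusted p = 8.52e-26). T rose by 1.495 ± 0.10 after PD03 removal, a difference of -6.66 ± 0.25. Sp5 (-0.09 ± 0.06, difference -4.87 ± 0.12) was not called after PD03 removal, and Axin2 rose (0.49 ± 0.05, difference -2.54 ± 0.07). Cdx1, Sp5 and Axin2 had the smallest p of the genes that were lower.

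Among genes that were higher, Calcoco2, an autophagy receptor, was at 156 to 164 CPM at 2 h and 360 to 415 CPM at 12 h of CHIRON removal (1.25 ± 0.06), whereas it fell by 1.23 ± 0.07 after PD03 removal. Ly6a, a surface antigen (0.54 ± 0.06 and -0.95 ± 0.05), and Igfbp2, a binding protein of insulin-like growth factors (1.02 ± 0.06 and -0.40 ± 0.05), had the next smallest p. Slc16a3 did not move after PD03 removal beyond its error (0.03 ± 0.36). Myrf rose in both (2.21 ± 0.15 and 2.74 ± 0.17), with a difference of -0.52 ± 0.23 (adjusted p = 0.0818).

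The change from 0 h to 2 h differed between the experiments in 319 genes that were higher (2.16%) and 288 that were lower after CHIRON removal (1.95%), 607 in all (4.12%). The early rise of Ppp1r10 was not seen after PD03 removal. Its level was 127 to 134 CPM at 0 h and 123 to 138 CPM at 2 h of PD03 removal, where the change was -0.003 and differed from that after CHIRON removal by 1.57 (adjusted p = 1.03e-17). In Hoxb9 the 2 h change after PD03 removal was -0.26 (difference 1.26, adjusted p = 1.18e-06), and in Mmrn2 0.05 (difference 0.77). Synpo2l did not differ at 2 h by the test (0.86 after PD03 removal, difference 0.24, adjusted p = 0.655), and from 2 h to 12 h it fell in that experiment as well (-0.91 ± 0.18). Of the 81 genes of this class found in both tables, PD03 removal called 3 in the same direction and 1 in the opposite one at 2 h. Over all 14365 genes tested here and found in both tables, it called 151 and 194. The median 2 h change of the 81 genes was -0.00 after PD03 removal and 0.72 after CHIRON removal, the latter used to choose them.

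**Figure D5:**
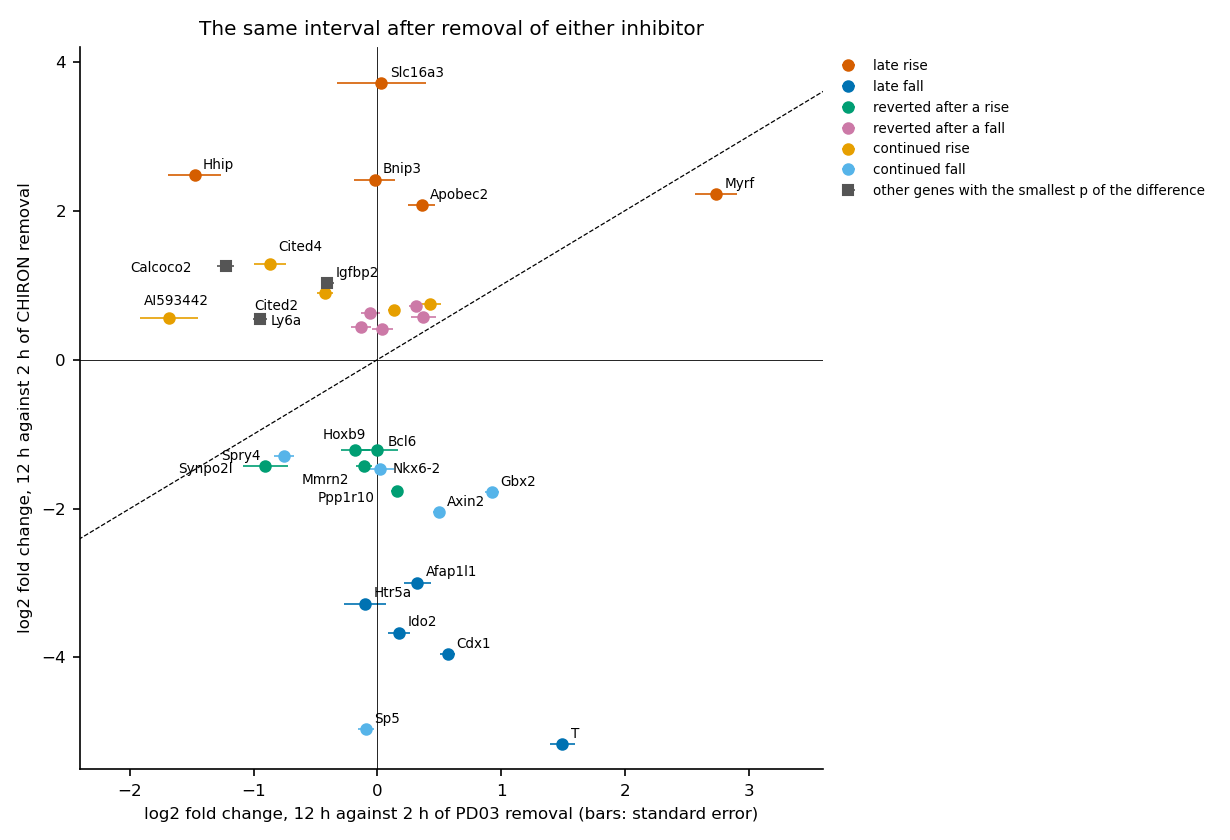
The log2 fold change from 2 h to 12 h of PD03 removal (horizontal axis, bars for the standard error) is plotted against that of CHIRON removal (vertical axis) for the named genes of each class and for Calcoco2, Ly6a and Igfbp2, with a dashed line where both are equal. T, Cdx1 and Sp5 lie far below the line, Slc16a3 and Hhip far above it and Myrf near it.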

How the data were processed

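RNA of E14 mESCs was sequenced after ribosomal RNA depletion. Per the labels and the study's methods, the authors trimmed reads (Trim Galore), aligned them to GRCm38/mm10 (TopHat2 2.1.0), counted them per gene (featureCounts 1.5.0, Ensembl annotation, strand setting not given in the sources used here) and deposited raw counts. Those of CHIRON removal held 48709 genes, of which 21695 were protein-coding (GENCODE M21). The table of PD03 removal was matched by symbol, and 12 of its columns, which match none of the 24 samples, were left unused.

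Protein-coding genes passing filterByExpr (minimum count 10, minimum total 15) were normalised by TMM and fitted by edgeR 4.0.16 (R 4.3.3; quasi-likelihood, time and substrate as terms, 11 libraries), with Benjamini-Hochberg adjustment at 0.05. The ± values are standard errors. DESeq2 1.42.0 was an alternative. The fit was tested on simulated data, of which no outcome is given here. Counts of the replicates of CHIRON removal varied by 6.24 to 18.07 times what sampling alone gives (chi-square over its degrees of freedom). Members and gene lists were chosen with earlier results of these data known. Named genes were Cdx1, Tcf7 and Lefty1, the 5 largest changes of each class with a mean of at least 5 CPM and no overlap between 2 h and 12 h, up to 4 called members of each of 29 lists with those a list is named for, and the 3 smallest p in each direction against PD03 removal. Other genes named were chosen after their values were seen, and a few genes are not reported here.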

Additional observations from a re-analysis of the deposited data

Results flagged for a closer look

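The change from 2 h to 12 h differed between the 2 inhibitor removals, by a test of the difference itself, in 2536 genes that were higher and 2703 that were lower after CHIRON removal. As log2 differences (CHIRON removal minus PD03 removal), these were -6.66 for T, -4.87 for Sp5, -4.53 for Cdx1, -2.54 for Axin2 and -1.93 for Ppp1r10 on the lower side. On the higher side they were 3.68 for Slc16a3, 2.48 for Calcoco2, 2.16 for Cited4, 1.5 for Ly6a, 1.43 for Igfbp2 and 0.41 for Epn2. From 0 h to 2 h the difference was 1.57 for Ppp1r10 and -1.12 for Sp5. The experiments were separate, so the inhibitor removed and the experiment cannot be told apart at any 1 time, and each change was taken within its own table.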

How the results depend on the processing

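Of 118 named genes, 61 kept their direction and call from 2 h to 12 h in all 22 alternative settings, and 30 of the other 57 lost the call only when the stiff 2 h library of 171333 counts was added. With it the calls fell to 754 higher and 705 lower, 191 late rises, 196 late falls, 15 and 0 reverted after a rise and a fall, 1 continued rise and 6 continued falls, and the differences from PD03 removal to 1356 and 1407. It also turned the sign of Mybbp1a (0.12), Mt1 (0.15), Amotl2 (0.11) and Vcl (0.028). On soft substrates alone, with fewer libraries, there were 1218 higher and 1282 lower genes, 266 late rises, 279 late falls, 20 and 0 reverted, 2 continued rises and 6 continued falls. A block by tube number gave 1245, 1294, 22 and 0 reverted, 3 and 7 continued. An adjusted p of 0.01 gave 1263, 1345, 36 and 2 reverted, 5 and 8 continued. No low-count filter gave 128 and 33 reverted, 42 and 34 continued, and 29 genes that differed between soft and stiff. A 6-group model gave 54 and 4 reverted and 11 continued falls, DESeq2 22 reverted after a fall, and dropping the interval rule 1540 late rises and 1508 late falls. The cause was not tested.

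Leaving out each library in turn gave 1583 to 2164 higher and 1440 to 2113 lower genes, 343 to 476 late rises, 284 to 522 late falls, 38 to 85 and 2 to 15 reverted, 7 to 21 and 8 to 19 continued, and 2323 to 2719 higher and 2299 to 2661 lower than after PD03 removal. Replicate numbers did not pair the libraries (correlations of same-numbered deviations from -0.109 to 0.0713, 0 of 10 over 0.1), and a replicate block gave 7 genes reverted after a fall and 11 continued falls, with 3 named genes losing their call, against 16 with the tube block and 21 on soft substrates alone. At the depth of these libraries T, Cdx2, Lefty1, Rnf43, Hoxb8, Hoxc8, Htr5a, Nkd2 and Atf3, among others, rest on few counts in at least 1 of the groups.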
